A study of Mus musculus with 8 samples.

Results

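The 10 genes of intestinal antimicrobial defence and the acute phase, S100a8, S100a9, Lcn2, Slpi, Reg3b, Reg3g, Nos2, Ang4, Retnlb and Acod1, were followed in RNA sorted from mouse colon early after bone marrow transplantation. They were a fixed list of symbols, 10 of the 22180 genes measured, and each had 1 probe set that carried its symbol alone. The list was selected on earlier results of these arrays, the log2 differences between allogeneic and syngeneic recipients, so the differences of these 10 genes are given as a description, and an adjusted p places a gene among all genes without being independent support. All recipients were female C57BL/6 mice that had 5 days of busulfan and cyclophosphamide conditioning and then received bone marrow with T cells. Allogeneic recipients (n = 4) had LP/J donors, whose T cells can start graft-versus-host disease (GVHD). Syngeneic recipients (n = 4) had C57BL/6 donors. Colon was taken at day 2 and digested with collagenase IV, and cells that were CD45 negative, CD11b negative and CD31 positive, an endothelial gate, were sorted. Each of the 8 Affymetrix Mouse Gene 2.0 arrays held amplified RNA of 1 such sample. Values are log2 signals after robust multi-array averaging (RMA), which ran from 1.39 to 13.9 with a median gene at 5.33. Affinities differ between probe sets, so signals are compared between arrays and not between genes.

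The intestine defends its surface in several ways that these genes represent. S100A8 and S100A9 form calprotectin, which withholds zinc and manganese from microbes, and lipocalin 2 (Lcn2) binds the siderophores with which bacteria collect iron. Reg3b and Reg3g encode secreted C-type lectins that damage bacteria, Ang4 an antimicrobial ribonuclease and Retnlb the goblet cell protein RELM-beta. Slpi encodes an inhibitor of neutrophil proteases, Nos2 the inducible nitric oxide synthase and Acod1 the enzyme that makes itaconate in activated macrophages. Colon epithelium, neutrophils and macrophages are textbook sources of these transcripts, whereas the gate was meant to hold endothelial cells.

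Promoter sequences are shown for genes at the centre of the results. They are S100a8, Lcn2 and Slpi, which had lower signals in the allogeneic group, Ang4, which had a higher one, and the near relatives Reg3b and Reg3g, whose signals were high in both. The sequences are from RefSeq (GRCm38.p6), which held a promoter for 8 of the 10 genes. Each runs 5′ to 3′ on the gene's strand, from 250 bases before the start site to 50 after it. In the first 4, capitals mark matches on either strand to GGGNNNTCC (an NF-kB type motif), TTCNNNGAA (a STAT type motif) or TTGCNNAA (a C/EBP type motif). In the Reg3b and Reg3g promoters capitals mark the longest run of bases that both share.
S100a8 (chr3:90668821-90669120, plus strand) is the first, with an NF-kB type match.
S100a8: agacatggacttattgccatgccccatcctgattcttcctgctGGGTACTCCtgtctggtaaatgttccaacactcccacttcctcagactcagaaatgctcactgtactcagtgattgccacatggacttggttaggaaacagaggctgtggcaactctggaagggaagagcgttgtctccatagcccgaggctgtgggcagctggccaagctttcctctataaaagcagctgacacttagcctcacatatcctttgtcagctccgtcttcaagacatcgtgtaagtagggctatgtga
Lcn2 (chr2:32387690-32387989, minus strand) has a C/EBP type match and 2 NF-kB type matches.
Lcn2: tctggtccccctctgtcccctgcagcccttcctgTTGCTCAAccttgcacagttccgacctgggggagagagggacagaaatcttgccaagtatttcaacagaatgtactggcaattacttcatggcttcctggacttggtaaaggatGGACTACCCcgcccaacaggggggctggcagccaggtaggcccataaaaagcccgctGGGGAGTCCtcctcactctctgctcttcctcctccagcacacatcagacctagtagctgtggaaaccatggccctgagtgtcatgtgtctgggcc
Slpi (chr2:164356458-164356757, minus strand) has a C/EBP type match.
Slpi: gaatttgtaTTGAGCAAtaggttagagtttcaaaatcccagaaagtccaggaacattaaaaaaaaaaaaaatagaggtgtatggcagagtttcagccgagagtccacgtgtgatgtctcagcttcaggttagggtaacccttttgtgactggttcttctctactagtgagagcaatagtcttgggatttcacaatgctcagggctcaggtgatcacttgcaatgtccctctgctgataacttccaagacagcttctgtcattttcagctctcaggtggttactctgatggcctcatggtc
Ang4 (chr14:51773541-51773840, minus strand) has a STAT type match.
Ang4: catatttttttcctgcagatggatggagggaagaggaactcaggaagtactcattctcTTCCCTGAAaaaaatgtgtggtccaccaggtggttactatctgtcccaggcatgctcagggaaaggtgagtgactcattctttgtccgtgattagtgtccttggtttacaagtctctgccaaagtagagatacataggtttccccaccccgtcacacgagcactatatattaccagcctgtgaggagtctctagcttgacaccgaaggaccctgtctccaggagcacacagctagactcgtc
Reg3b (chr6:78370635-78370934, plus strand) and Reg3g (chr6:78468825-78469124, minus strand) are compared with each other.
Reg3b: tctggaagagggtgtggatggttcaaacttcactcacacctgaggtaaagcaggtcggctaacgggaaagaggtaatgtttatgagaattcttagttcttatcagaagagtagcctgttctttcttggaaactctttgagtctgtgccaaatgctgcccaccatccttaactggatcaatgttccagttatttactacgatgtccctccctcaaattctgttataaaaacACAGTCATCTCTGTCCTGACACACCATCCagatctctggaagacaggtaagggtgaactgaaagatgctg
Reg3g: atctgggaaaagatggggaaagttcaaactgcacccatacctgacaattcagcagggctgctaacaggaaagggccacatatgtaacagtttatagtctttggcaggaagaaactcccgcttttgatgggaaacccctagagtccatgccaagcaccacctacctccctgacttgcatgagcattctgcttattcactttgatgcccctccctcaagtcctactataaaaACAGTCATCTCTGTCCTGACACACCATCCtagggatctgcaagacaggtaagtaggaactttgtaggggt

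Of the 8 promoters, 3 held the NF-kB type motif (S100a8, Lcn2 and Reg3g), against 17.8% of 32851 promoter windows of this length in the table. The C/EBP type motif was in 3 of the 8 (S100a9, Lcn2 and Slpi), against 10.8% of all windows. The STAT type motif was in 2 of the 8 (Reg3b and Ang4), against 8.3% of all windows. No overlap of one match with another occurred in the windows shown. The Reg3b and Reg3g windows were identical at 214 of 310 aligned columns (69.0%), and their shared run of 29 bases extended in both from 20 bases before the start site to 9 after it. These matches describe letters in the windows and show no binding.

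The arrays carried abundant epithelial RNA. The 17 colon epithelium markers had a mean of 10.3 ± 0.05 (SD) on allogeneic arrays and 10.1 ± 0.29 on syngeneic arrays (exact two-sided permutation test over arrays, p = 0.143). The 15 endothelial markers averaged 8.22 ± 0.39 on allogeneic and 9.01 ± 0.84 on syngeneic arrays (p = 0.171 by the same exact test), and all 15 log2 fold changes were negative, though none passed in limma. Without syngeneic arrays 3 and 4 the difference, allogeneic minus syngeneic, was 0.027 in place of 0.25 for the epithelial list and -0.12 in place of -0.78 for the endothelial list, and without syngeneic array 4 alone it was 0.13 and -0.43. The part of either list in the results below was not tested beyond the fits that use its mean as a covariate. Syngeneic arrays 3 and 4 stood apart, with the highest endothelial means (9.26 and 10.08) and the lowest epithelial means (9.98 and 9.68). Results of the 10 genes, and of some others, are therefore also given below without these 2 arrays where that changes them. Medians and counts of negative values in the gene lists were not repeated without them. The mice were female, and the signals of 3 Y-linked genes, between 2.28 and 3.18, served as a guide to background. No detection calls, slides or scan dates were used. In such bulk samples fewer cells of a type and less RNA per cell cannot be told apart.

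Of the 10 genes, 6 (S100a8, S100a9, Lcn2, Slpi, Nos2 and Acod1) had a lower signal on every allogeneic array than on any syngeneic array. Across all genes 3.36% were separated in that direction and 5.18% in the other, 8.55% in all. Ang4 had a higher mean in the allogeneic group with overlapping arrays, and Reg3b, Reg3g and Retnlb had small positive differences with overlapping arrays. In limma, with Benjamini-Hochberg adjustment over all 22180 genes, S100a8, Slpi and Acod1 fell at an adjusted p below 0.05, and the other 7 did not pass. Of all genes 0.113% passed as lower and 0.356% as higher, 0.469% in all. The members were chosen with this contrast known, so nothing is read from these shares. Without syngeneic arrays 3 and 4, and with the epithelial marker mean as a covariate, S100a8 alone passed; with the endothelial marker mean S100a8 and Slpi passed.

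**Figure D1:**
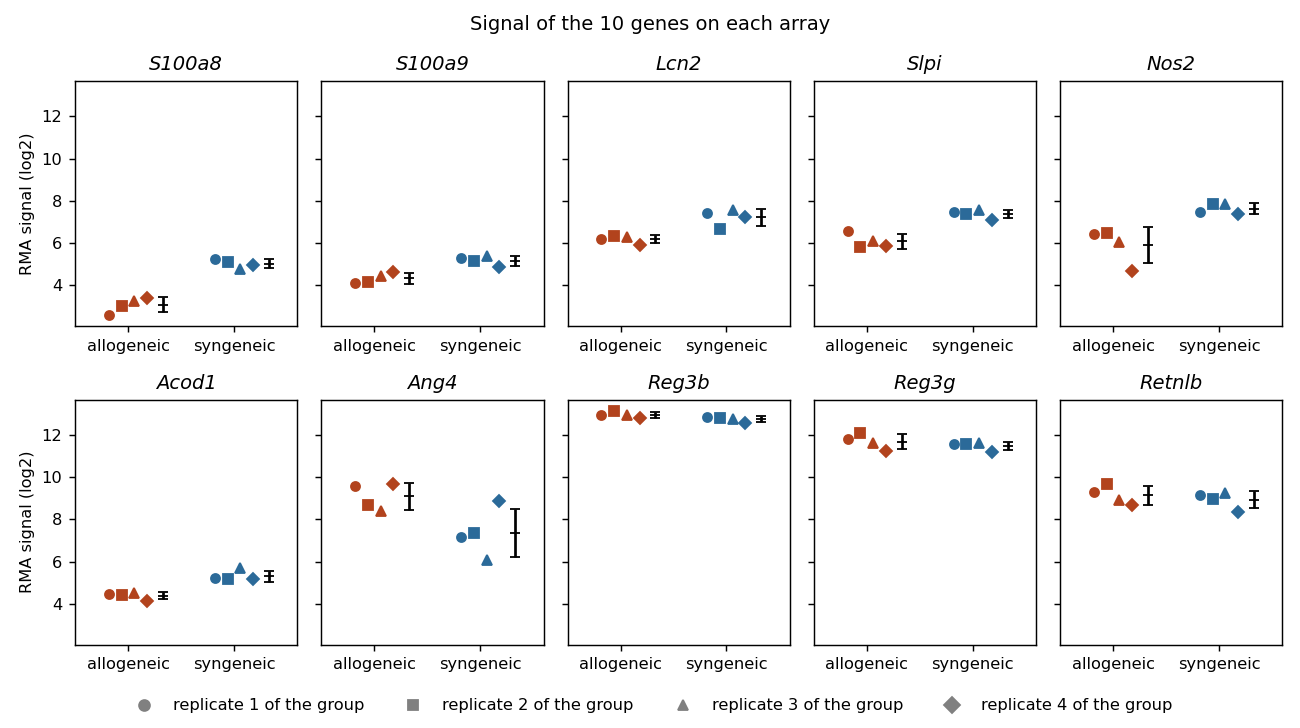
RMA signal (log2) of each of the 10 genes on each array, allogeneic on the left and syngeneic on the right of each panel. Marker shapes give the replicate number, and the black bar gives the group mean ± SD (n = 4). Groups separate without overlap for S100a8, S100a9, Lcn2, Slpi, Nos2 and Acod1, while Ang4 is higher in allogeneic arrays except for syngeneic array 4 at 8.85.

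Among the metal-withholding genes, S100a8 differed most. Its signals on allogeneic arrays 1 to 4 were 2.59, 3.01, 3.27 and 3.41, against 5.25, 5.08, 4.75 and 4.97 on syngeneic arrays 1 to 4. Every allogeneic array was at or close to the Y-linked range, and every syngeneic array was well above it. The group means were 3.07 ± 0.36 and 5.01 ± 0.21 (SD, n = 4 each), a log2 fold change of -1.94 ± 0.18 (SE, limma adjusted p = 0.00424), 3.84-fold lower. Because the allogeneic signals lay near background, the size of the fall is uncertain. S100a8 passed in all 17 alternative fits that tested it, with log2 fold changes between -2.09 and -1.78.

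S100a9, the partner of S100a8 in calprotectin, read 4.11, 4.13, 4.44 and 4.61 on the allogeneic arrays, against 5.28, 5.13, 5.37 and 4.85 on the syngeneic arrays. The gap between the groups was small, 4.61 on allogeneic array 4 against 4.85 on syngeneic array 4. The log2 fold change was -0.83 ± 0.16 (SE, limma adjusted p = 0.059) and did not pass. Within each array the S100a9 signal minus the S100a8 signal averaged 1.25 ± 0.18 in the allogeneic and 0.14 ± 0.32 in the syngeneic group (SD, n = 4 each). The allogeneic S100a8 signals in this difference lay near background, so nothing is read from it about the subunits.

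Lcn2 had signals of 6.21, 6.34, 6.26 and 5.89 on allogeneic arrays, against 7.44, 6.67, 7.58 and 7.22 on syngeneic arrays. Syngeneic array 2 lay closest to the allogeneic arrays. The log2 fold change was -1.05 ± 0.20 (SE, limma adjusted p = 0.0551), just outside the threshold. Without syngeneic array 2 it was -1.23 (limma adjusted p = 0.0211), and without syngeneic arrays 3 and 4 it was -0.88 (limma adjusted p = 0.199).

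Slpi, the protease inhibitor, read 6.55, 5.79, 6.11 and 5.87 on allogeneic arrays, against 7.46, 7.39, 7.55 and 7.08 on syngeneic arrays. The lowest syngeneic array thus lay above the highest allogeneic array by a wider margin than the SD of either group. Means were 6.08 ± 0.34 and 7.37 ± 0.20 (SD, n = 4 each), 2.45-fold lower in the allogeneic group (log2 fold change -1.29 ± 0.19 SE, limma adjusted p = 0.0238). The size was stable, from -1.45 to -1.19 over 18 alternative fits. The call was lost in 5 of 8 fits with 1 array removed (without allogeneic array 2, 3 or 4, or syngeneic array 1 or 3; limma adjusted p up to 0.0974), and without syngeneic arrays 3 and 4 (limma adjusted p = 0.0647).

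The genes of the metabolite enzymes also had lower signals. Nos2 read 6.43, 6.46, 6.06 and 4.67 on allogeneic arrays, against 7.47, 7.87, 7.83 and 7.36 on syngeneic arrays. Allogeneic array 4 was well below the other allogeneic arrays, which lay close together. Group means were 5.90 ± 0.84 and 7.63 ± 0.25 (SD, n = 4 each), a log2 fold change of -1.73 ± 0.35 (SE, limma adjusted p = 0.0616) that did not pass. Without allogeneic array 4 the log2 fold change was smaller and passed (-1.31, limma adjusted p = 0.0434). Nos2 passed in 3 of 18 alternative fits, and without syngeneic arrays 3 and 4 it was at -1.76 (limma adjusted p = 0.18).

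Acod1 had signals of 4.47, 4.42, 4.51 and 4.12 on allogeneic arrays, against 5.23, 5.15, 5.70 and 5.17 on syngeneic arrays. The groups did not overlap, and syngeneic array 3 stood above the other syngeneic arrays. The log2 fold change of -0.93 ± 0.16 (SE, limma adjusted p = 0.0387) was a 1.91-fold fall. It passed in 2 of 8 fits with 1 array removed, those without syngeneic array 2 or 4, and missed in the other 6 (limma adjusted p up to 0.12). Without syngeneic arrays 3 and 4 it was -0.81 (limma adjusted p = 0.117).

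Ang4 ran opposite to Nos2. Ang4 signals were 9.59, 8.70, 8.40 and 9.67 on allogeneic arrays, against 7.14, 7.37, 6.05 and 8.85 on syngeneic arrays. Syngeneic array 4 lay within the allogeneic range, and the other syngeneic arrays were at least 1 log2 unit below every allogeneic array. Means were 9.09 ± 0.64 and 7.36 ± 1.15 (SD, n = 4 each), a log2 fold change of 1.74 ± 0.50 (SE, limma adjusted p = 0.163) that did not pass. Without syngeneic array 4 it was 2.24 (limma adjusted p = 0.0369), the only 1 of 18 alternative fits in which Ang4 passed. It was 1.30 without syngeneic array 3 (limma adjusted p = 0.318) and 1.83 without syngeneic arrays 3 and 4 (limma adjusted p = 0.0842). Angiogenin family members are alike in sequence, so the Ang4 probe set may also read a relative.

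The opposite course of the 2 genes was visible array by array. The Ang4 signal minus the Nos2 signal was 3.17, 2.24, 2.34 and 5.00 on allogeneic arrays, against -0.33, -0.50, -1.77 and 1.50 on syngeneic arrays. Every allogeneic array thus exceeded every syngeneic one. The pair was picked for this contrast, so no test is given.

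The secreted lectins and RELM-beta differed little between donor types. Reg3b, a lectin active mainly against Gram-negative bacteria, read 12.95, 13.15, 12.95 and 12.79 on allogeneic arrays, against 12.87, 12.81, 12.77 and 12.55 on syngeneic arrays. These signals were near the top of the range of values on these arrays, and the groups overlapped. The log2 fold change was 0.22 with a 95% interval from 0.02 to 0.41 for this gene alone (limma adjusted p = 0.315). It was 0.13 ± 0.08 (SE) without syngeneic arrays 3 and 4, 0.12 ± 0.09 with the epithelial covariate and 0.08 ± 0.07 with the endothelial covariate.

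Reg3g, a lectin active against Gram-positive bacteria, had signals of 11.82, 12.07, 11.60 and 11.25 on allogeneic arrays, against 11.57, 11.55, 11.63 and 11.18 on syngeneic arrays. Replicate 4 was lowest in both groups. The log2 fold change was 0.20 with a 95% interval from -0.15 to 0.56 (limma adjusted p = 0.648), and 0.12 without syngeneic arrays 3 and 4. Reg3b and Reg3g are close relatives, and signal of one may be read at probes of the other.

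Retnlb read 9.30, 9.67, 8.93 and 8.66 on allogeneic arrays, against 9.14, 8.96, 9.27 and 8.34 on syngeneic arrays, with partial overlap. Its log2 fold change was 0.21 with a 95% interval from -0.33 to 0.76 (limma adjusted p = 0.768), and it was 0.09 without syngeneic arrays 3 and 4. The intervals of Reg3g and Retnlb leave room for changes in either direction. A miss of the threshold does not show equal levels.

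**Figure D2:**
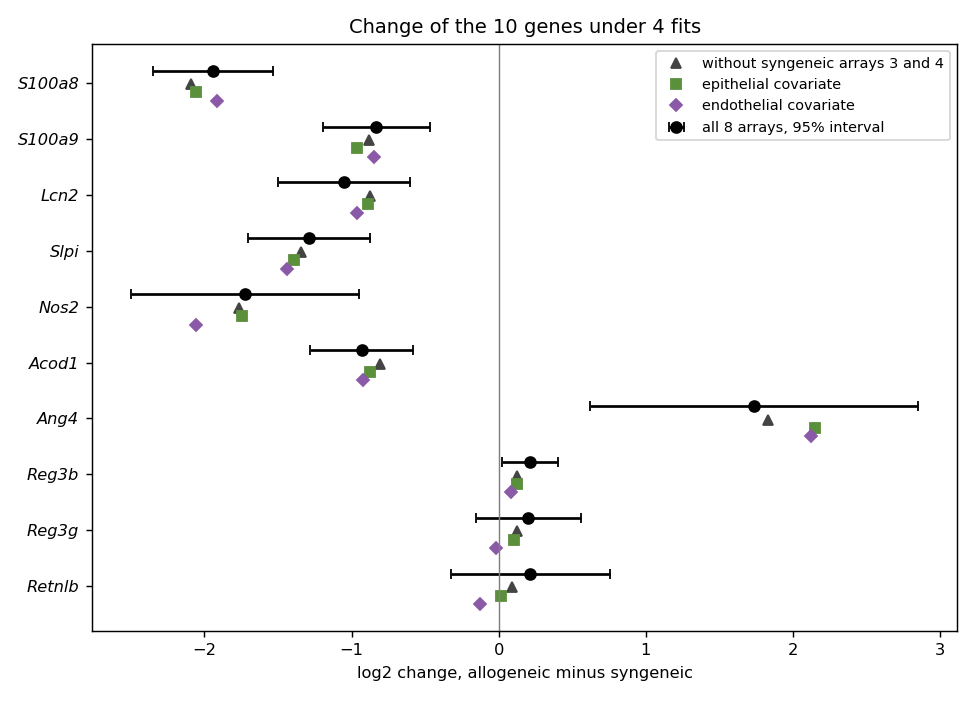
Log2 change, allogeneic minus syngeneic, of the 10 genes. Black points are the fit of all 8 arrays with the 95% interval of each gene, and the other markers give the value without syngeneic arrays 3 and 4 and with the epithelial or endothelial marker mean as a covariate. S100a8 lies between -2.09 and -1.91 in these 4 fits, and Reg3g and Retnlb cross zero with the endothelial covariate.

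Reg3b, Reg3g and Retnlb varied together from array to array although they did not separate the groups. Over the 8 arrays Reg3g and Retnlb had a Pearson's r of 0.959 (exact permutation p = 0.000198, adjusted 0.00446 over the 45 pairs of the 10 genes) and a Spearman's rho of 0.929 (exact permutation p = 0.00223, adjusted 0.0335). Without the 2 arrays farthest from the median of Reg3g, r was 0.89, and r of the deviations from the group means was 0.961. Reg3b and Reg3g had r = 0.887 and rho = 0.743 (exact permutation p = 0.0057 and 0.0422, adjusted 0.0363 and 0.121), and r = 0.572 without the 2 arrays farthest from the median of Reg3b, so that relation rests partly on those arrays, while r of the deviations from the group means was 0.913. Reg3b and Retnlb had r = 0.843 and rho = 0.647 (exact permutation p = 0.0123 and 0.0913, adjusted 0.0485 and 0.171), with r = 0.231 without those arrays and 0.911 for the deviations from the group means. The arrays share tissue and normalization, and the part of differing epithelial content in this was not tested. For genes that separate the groups no pooled correlation is given as a result. Their pairs are still among the 45, and small p of such pairs can lower the adjusted p given here.

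Genes with the most similar pattern were found by Pearson's r over the 8 arrays among 5017 genes whose values spanned at least 1 log2 unit. This likeness includes the difference between groups and is a description. Nearest to S100a8 was Muc1, a transmembrane mucin (r = 0.974, log2 fold change -1.16), followed by Mir665 (0.972) and Lat (0.957). S100a9 was nearest to Zbtb16, the transcription factor PLZF (r = 0.975), Lgi2 (0.953) and Mir665 (0.948). Lcn2 was nearest to the cytokine gene Tnf (r = 0.963), Tnni2 (0.952) and Acod1 (0.948). Acod1 was nearest to the neutrophil chemokine gene Cxcl1 (r = 0.984), Tnf (0.979) and Mir1932 (0.971). Slpi was nearest to Clca4b (r = 0.968), Snhg7 (0.962) and E2f2 (0.961). Nos2 was nearest to Cdipt (r = 0.977), Rpap2 (0.97) and Tnip3 (0.964), and Ang4 to Ccn3 (0.963), Asah2 (0.962) and Acvr2a (0.947). Reg3b was nearest to Speer8-ps1, Dio1 and Slc38a7 (r = 0.963 each), Reg3g to Retnlb (0.96), Depdc1b (0.953) and Speer8-ps1 (0.952), and Retnlb to A330035P11Rik (0.942), Zdhhc23 (0.926) and Speer8-ps1 (0.923). Reg3b and Reg3g spanned less than 1 log2 unit and were not among the candidates, so Reg3g is missing for Retnlb despite its r of 0.959.

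The 5 lists of other genes of these pathways, chosen by function but with earlier results of these arrays known, held 129 genes, of which 114 were measured. Of these, 1 rose, 1 fell and 112 did not pass. Their median log2 fold change was -0.07, against -0.01 over all genes, with 40 positive and 74 negative. Over all 22180 genes 11302 values were negative, and 2937 had an unadjusted p below 0.05, against 36 of these 114.

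Among 27 measured genes of secreted antimicrobial proteins, 1 rose and none fell, and the median log2 fold change was 0.04. Retnla, the RELM-alpha relative of Retnlb, read 4.74, 4.43, 4.56 and 4.83 on allogeneic arrays, against 3.44, 3.82, 3.78 and 3.63 on syngeneic arrays. The groups were apart, both below the median gene. Its log2 fold change was 0.97 ± 0.14 (SE, limma adjusted p = 0.0238), and it was lost without syngeneic arrays 3 and 4 (1.01, limma adjusted p = 0.0764). Wfdc2, which like Slpi has WAP domains, had a log2 fold change of 0.82 (limma adjusted p = 0.0667) and Pla2g2a, a gene of the secreted phospholipase family, one of -0.86 (limma adjusted p = 0.107).

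The widest difference of the list was that of Mptx1, a mucosal pentraxin. Its signals were 11.25, 12.02, 11.23 and 11.85 on allogeneic arrays, against 9.38, 9.32, 9.58 and 3.59 on syngeneic arrays. Syngeneic array 4 was near background and far from the other syngeneic arrays, which lay close together below all allogeneic arrays. The log2 fold change of 3.62 ± 1.11 (SE) did not pass (limma adjusted p = 0.188), whereas without syngeneic array 4 it was 2.16 ± 0.19 (SE, limma adjusted p = 0.00246). Without syngeneic arrays 3 and 4 it was 2.24 (limma adjusted p = 0.0149). These were the only 2 of 18 alternative fits in which Mptx1 passed. The log2 fold change was 1.51 with the epithelial and 1.75 with the endothelial covariate (limma adjusted p = 0.608 and 0.577).

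Among 27 measured genes of the acute phase and of metal withholding, Lrg1 fell, and 26 did not pass. Lrg1, a secreted leucine-rich glycoprotein, read 7.92, 8.38, 8.22 and 7.45 on allogeneic arrays, against 9.57, 9.93, 10.20 and 9.87 on syngeneic arrays, without overlap. Its log2 fold change was -1.90 ± 0.20 (SE, limma adjusted p = 0.00738), and it passed in all 18 alternative fits (limma adjusted p up to 0.0448). The protease inhibitor gene Serpina3n had a log2 fold change of -1.59 (limma adjusted p = 0.0943). The transferrin receptor gene Tfrc had one of 0.78 and the iron exporter gene Slc40a1 one of 1.17 (limma adjusted p = 0.12 and 0.162). Other iron genes of the list went both ways. Slc11a1 was at 0.33, against -0.10 for Slc39a14, -0.59 for Cp and -0.60 for Steap4, and none of them passed. The median of the list was -0.13, with 18 of 27 values negative.

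None of the 22 measured genes of oxidants, nitric oxide and itaconate passed in limma, where 7 had an unadjusted p below 0.05. Ido1, which degrades tryptophan, had a log2 fold change of -1.43 (limma adjusted p = 0.0943). Duox2, the hydrogen peroxide source of the epithelial surface, had one of -0.91 (limma adjusted p = 0.123), Cybb, the phagocyte oxidase subunit, one of 0.99 (limma adjusted p = 0.163) and the arginine transporter gene Slc7a1, which supplies the substrate of nitric oxide synthases, one of -0.54 (limma adjusted p = 0.206). The median was -0.09.

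Signals that induce these genes in epithelium, those of interleukin (IL) 22, IL-17 and IL-6, were represented in a list of 26 genes. The list also held genes of other signals, such as Tnf, Il1b, Il1r1 and Il18. None of the 26 passed in limma, where 12 had an unadjusted p below 0.05. Of the 26 values 22 were negative, with a median of -0.19. This count was not repeated without syngeneic arrays 3 and 4, on which some of these genes, such as Osmr (8.80 and 9.76), read highest. Tnf read 5.56, 5.57, 5.79 and 5.36 on allogeneic arrays, against 6.29, 6.01, 6.53 and 6.10 on syngeneic arrays, a log2 fold change of -0.66 (limma adjusted p = 0.104). Il1b, which encodes IL-1 beta, had one of -0.90 (limma adjusted p = 0.146) and the epithelial cytokine gene Il18 one of 0.58 (limma adjusted p = 0.234). Il22 had one of -0.50 (limma adjusted p = 0.224), but its mean signals, 2.32 in allogeneic and 2.83 in syngeneic arrays, lay in the Y-linked range.

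Type 2 signals induce Retnlb in goblet cells. None of 12 measured genes of that pathway passed in limma, where 2 had an unadjusted p below 0.05, and the median was -0.06. Il4ra, the receptor chain of IL-4 and IL-13, had a log2 fold change of -0.77 (limma adjusted p = 0.142), the tuft cell gene Dclk1 one of 0.28 (limma adjusted p = 0.376), the tuft cell cytokine gene Il25 one of -0.30 (limma adjusted p = 0.39) and Il4 one of -0.28 (limma adjusted p = 0.519).

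**Figure D3:**
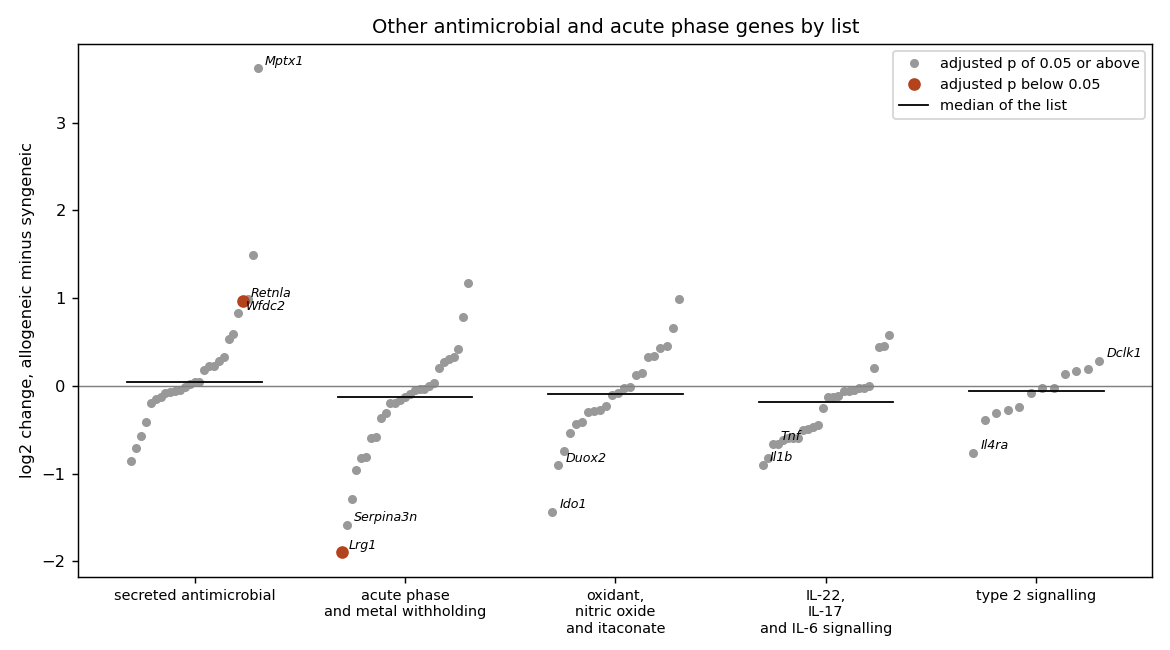
Log2 change, allogeneic minus syngeneic, of the 114 measured genes of 5 related lists, ordered by value within each list. Each point is a gene, coloured where the adjusted p was below 0.05, and black lines are list medians, which lie between -0.19 and 0.04. Retnla and Lrg1 are the coloured points, and Mptx1 is the highest point at 3.62.

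Markers of cell types that can carry these transcripts were read beside them. Of 14 neutrophil markers 13 were measured, with a mean of 4.70 ± 0.09 (SD) on allogeneic arrays and 4.88 ± 0.09 on syngeneic arrays (exact two-sided permutation test over arrays, p = 0.0286, the smallest that 4 against 4 can give). This p was not adjusted for the number of marker lists tested. Array means were 4.58 to 4.77 in the allogeneic group and 4.81 to 5.01 in the syngeneic group. Only 2 of the 13, Cd177 (9.28 over all arrays) and Ly6g (7.72), were above the median gene, while Cxcr2 averaged 4.97 and the granule genes Elane, Ngp, Mpo, Ltf and Camp were between 3.04 and 4.55. Of the 13 log2 fold changes 9 were negative, with -1.17 for Ly6g (limma adjusted p = 0.222) and -0.52 for Cxcr2 (limma adjusted p = 0.258), against 0.09 for Cd177 (limma adjusted p = 0.911). None of the 13 passed, and their part in the lower S100a8, S100a9, Lcn2 and Slpi signals was not tested.

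Monocyte and macrophage markers (13 of 14 measured) averaged 5.67 ± 0.27 on allogeneic and 5.79 ± 0.08 on syngeneic arrays (exact permutation p = 0.343), led by Ly6c2 (9.51 over all arrays), C1qa (7.15) and C1qb (6.64). Their 13 log2 fold changes, 8 of them negative, were mixed. Ly6c2 was at -0.91, C1qa at 0.05 and C1qb at 0.33 (limma adjusted p = 0.126, 0.952 and 0.652). T cell markers (6 of 7 measured) were low at 4.42 ± 0.15 on allogeneic and 4.33 ± 0.09 on syngeneic arrays (exact permutation p = 0.371), led by Cd3e (4.93), Cd4 (4.63) and Cd3d (4.39), and none was above the median gene. The 9 goblet cell markers, led by Muc2 (12.8), Agr2 (12.4) and Tff3 (11.03), averaged 10.45 ± 0.19 on allogeneic and 10.1 ± 0.53 on syngeneic arrays (exact permutation p = 0.343), with syngeneic array 4 lowest at 9.34. Their difference was 0.31, and 0.049 without that array. That array had the highest Ang4 signal and the lowest Retnlb signal of its group. Paneth cell markers (5 of 7 measured) averaged 5.70 ± 0.10 on allogeneic and 5.87 ± 0.23 on syngeneic arrays (exact permutation p = 0.286). They were led by Mmp7, a matrix protease (9.27 over all arrays), with Lyz1 (5.42) and Itln1 (5.36) near the median gene. Mmp7 fell (log2 fold change -1.10, limma adjusted p = 0.0387) but passed in only 6 of 18 alternative fits. The list did not move as 1. Of its 5 log2 fold changes 2 were negative, those of Mmp7 and Defa24 (-0.70). Lyz1 was at 0.59, Itln1 at 0.33 and Mptx2 at 0.05, and only Mmp7 passed. Mmp7 was at -0.83 without syngeneic arrays 3 and 4 (limma adjusted p = 0.13) and at -0.64 when the probe sets of each gene were averaged (limma adjusted p = 0.101). The sort marker gene Pecam1 (10.4 over all arrays), Cdh5 and Kdr (9.92) led the endothelial list, and Car1 (13.0), Lgals4 (12.3) and Krt8 (11.9) the epithelial list.

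**Figure D4:**
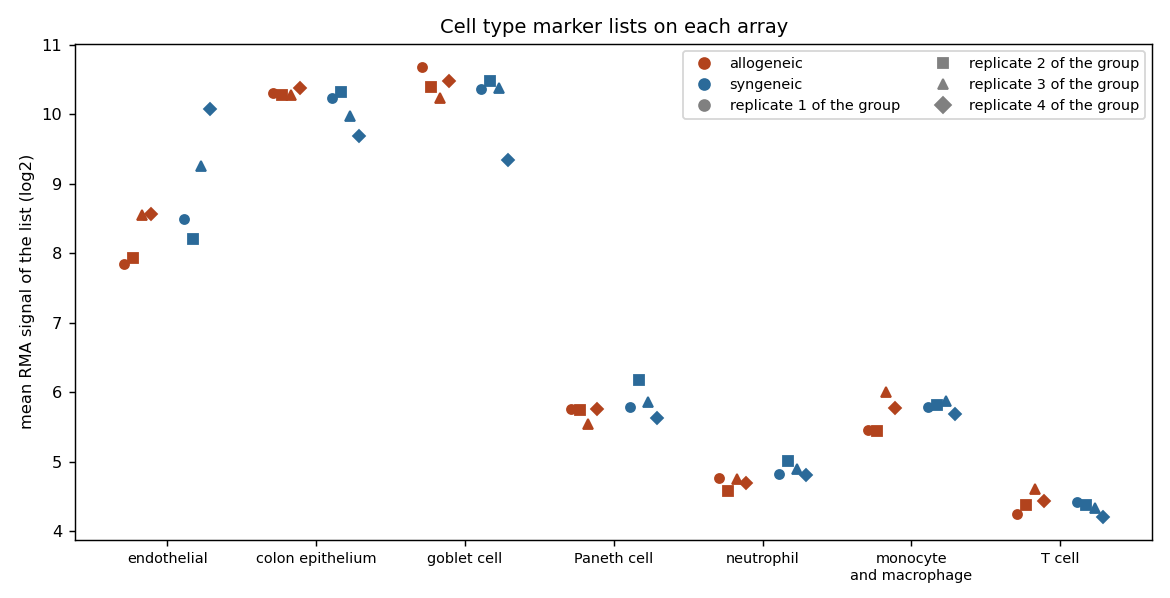
Mean RMA signal (log2) of each cell type marker list on each array, allogeneic on the left and syngeneic on the right of each pair. Each point is 1 array, with marker shapes for replicate numbers. Epithelial and goblet lists lie above 9.3 on every array, and neutrophil and T cell lists at or below 5.01.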

How the data were processed

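The authors deposited log2 values of 41345 probe sets on 8 arrays, for which the submitters' processing notes name RMA and Expression Console (version 1.4.1). RMA equalizes the arrays' distributions, which can hide a change shared by most genes. Array medians were between 4.68 and 4.79. Groups and replicate numbers came from sample titles, and the study's design text counts 4 mice per group. By the platform annotation 23521 probe sets carried 1 gene symbol, 1814 several and 16010 none. The first kind was used, with the highest mean per gene, which left 22180 genes. The level of RMA summary is not given in the sources used here.

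Changes, allogeneic minus syngeneic, were fitted with limma 3.58.1 in R 4.3.3 (lmFit, eBayes with intensity trend, 4.65 prior degrees of freedom) and adjusted by Benjamini-Hochberg over all genes, at a threshold of 0.05. The fit was tested on simulated data. List means were tested by exact permutation of arrays, without adjustment for the number of lists. The members and gene lists were chosen with earlier results of these data known. Named are all 10 members, per pathway list the genes that passed and the 4 smallest p, per marker list the 3 highest, and per member the 3 most similar genes. Mmp7, Osmr, the iron genes other than Tfrc and Slc40a1, and further neutrophil and Paneth cell markers were named after their values were seen. Motifs were also chosen then. The alternatives changed the variance prior, filter, scaling, probe set rule, array weights, replicate block or the arrays used. Fits with a covariate, or without syngeneic arrays 3 and 4, were chosen after seeing the data. No batch was recorded in the values used. The number of arrays limits the precision.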

Additional observations from a re-analysis of the deposited data

Results flagged for a closer look

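Of 74 groups of 4 arrays examined, 7 held 1 array far from the rest by Dixon's test, which flags about 1 in 20 groups by chance. Acod1 on syngeneic array 3 was at 5.70, with the next array at 5.23. On syngeneic array 4 Mptx1 was low at 3.59 (next 9.32), as was the goblet cell marker mean at 9.34 (next 10.36). Ido1 was low on syngeneic array 3 at 8.29 (next 9.02). The arginine transporter gene Slc7a1 was low on allogeneic array 4 at 6.93 (next 7.59), the array that also had the lowest Nos2 signal, 4.67. Il25 was high on allogeneic array 3 at 5.38 (next 5.03), and the Paneth cell marker mean was low there at 5.54 (next 5.74).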

How the results depend on the processing

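S100a8 kept its direction and its call in the 17 alternative fits that tested it, and no alternative changed the direction of S100a9, Lcn2, Slpi, Nos2, Acod1, Ang4 or Reg3b. With the endothelial covariate the log2 fold changes of Reg3g and Retnlb were -0.018 and -0.13 in place of 0.20 and 0.21. The cause was not tested. Members called lower numbered 3, against 5 with array weights, 1 without syngeneic arrays 3 and 4, 1 with the epithelial covariate, and 1 to 4 when 1 array was left out. Members called higher numbered 0, and 0 to 1 when 1 array was left out (Ang4 without syngeneic array 4). The filter on dim genes left 7 of the 10 to test, without S100a8, S100a9 and Acod1, and among them Lcn2 (limma adjusted p = 0.0361), Slpi (0.0163) and Nos2 (0.0421) passed.

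Genes called higher numbered 79, against 138 without dim genes, where fewer genes were tested, 40 with the replicate block, 26 without syngeneic arrays 3 and 4, 12 and 15 with the epithelial and endothelial covariates, and 4 to 145 when 1 array was left out. Genes called lower numbered 25, against 55 without dim genes, 39 with array weights, 12, 4 and 9 in the same 3 settings, and 4 to 35 when 1 array was left out. Of the other pathway genes 1 was called higher, against 2 with array weights, 0 with the replicate block, 0 with either covariate and 0 to 3 with 1 array left out. Of them 1 was called lower, against 3 with the replicate block and 1 to 2 with 1 array left out.

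Over all genes same-numbered arrays shared little deviation from their group means (correlations of 0.055, 0.046, -0.096 and 0.095). Such correlations do not settle whether the numbers pair the samples. Under the replicate block Nos2 passed (limma adjusted p = 0.0476) and Acod1 missed (limma adjusted p = 0.0536), at the same log2 fold changes. Ang4 also missed (limma adjusted p = 0.0514), with an SE of 0.269 under the block against 0.505 in the main fit. The SE of S100a8 was 0.204 against 0.184.

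The difference of neutrophil marker means was -0.18, and -0.17 with arrays centred on their medians (exact permutation p = 0.0571), -0.21 without syngeneic arrays 3 and 4, where the smallest possible p is 0.0667, and -0.21 to -0.14 with 1 array left out. It lost the threshold without allogeneic array 2 or syngeneic array 2. With 1 array left out the difference was 0.13 to 0.34 for epithelial markers (0.34 without syngeneic array 2, exact permutation p = 0.0286) and -0.25 to -0.062 for Paneth cell markers (-0.25 without syngeneic array 4, exact permutation p = 0.0286).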

Other observations

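Relatives of the secreted lectins varied between single arrays, in genes chosen after their values were seen. Reg1 read 6.14, 9.64, 4.35 and 6.89 on allogeneic arrays, against 3.90, 4.07, 3.28 and 9.80 on syngeneic arrays. Its log2 fold change of 1.49 did not pass (limma adjusted p = 0.712), and the highest value of each group belonged to different replicate numbers. Reg3a was at 3.75 to 4.59 on allogeneic arrays and at 3.60 to 4.08 on syngeneic arrays 1 to 3, against 7.00 on syngeneic array 4. Reg4, a marker of deep crypt secretory cells in mouse colon, read 11.11, 11.43, 10.58 and 11.21 on allogeneic arrays, against 10.46, 10.67, 10.51 and 8.74 on syngeneic arrays (log2 fold change 0.99, limma adjusted p = 0.283). Without syngeneic array 4 the log2 fold change of Reg4 was 0.54, and with the epithelial or endothelial covariate it was 0.29 or 0.31.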
